A study of Homo sapiens with 8 samples.

Results

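The genes described here are those of cholesterol and fatty acid synthesis with their sterol sensors and transporters, 35 listed by name, of which 31 had a probe set of that gene symbol among the 21448 probe sets of the arrays, 17709 of them with 1 gene name. FDFT1, MYLIP, FADS1 and ACSL3 had no probe set of that symbol and were not analysed here. No member had more than 1 probe set. By role, 6 measured members belong to the mevalonate pathway, 10 to the steps from squalene to cholesterol, 5 to sterol sensing, 3 to sterol transport and 7 to fatty acid synthesis. Values are on a log2 scale, so that a difference of 1 is a 2-fold change, and a level is only compared with other levels of the same probe set.

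RNA came from CUTLL1, a human T-cell lymphoma line with a t(7;9) rearrangement and aberrant NOTCH1 activity. All cells were lentivirally transduced on a GFP backbone whose name lists the MNDU3 and PGK promoters, and were then sorted by flow cytometry. Empty-V cells carried the backbone alone and cluster cells also carried the miR-17-92 cluster, expressed constitutively. Both were cultured for 2 days with a gamma-secretase inhibitor (GSI, 1 µM), which blocks the cleavage that releases active NOTCH1, or with its solvent DMSO, so that the 4 groups held 2 Clarion S arrays each, numbered set 1 and set 2 in the labels. The study asked which part of the NOTCH1 response is reverted when the cluster stays expressed. Both vectors rest on a single cell line, and whether the sets came from separate transductions is not given in the sources used here.

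Cells make cholesterol from acetyl-CoA through mevalonate and squalene, and fatty acids from malonyl-CoA. Most enzymes of both routes are transcribed under SREBP factors, which the escort protein SCAP carries out of the endoplasmic reticulum when sterols are low and INSIG proteins hold back when sterols are high. Oxysterols act through the LXR receptors, which drive SREBF1 and the efflux pumps ABCA1 and ABCG1. Proliferating T-lineage cells are known for high use of these routes, because new membrane needs sterols and fatty acids.

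The cluster that separates the vectors lies on chromosome 13, plus strand (RefSeq, GRCh38.p14). One mature arm is shown for each of its 6 miRNA hairpins, because they are what the cluster construct adds. Capitals mark the seed, bases 2 to 8. The first pair share 1 seed, and miR-18a-5p differs from them in its seed.
hsa-miR-17-5p: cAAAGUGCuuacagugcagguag
hsa-miR-20a-5p: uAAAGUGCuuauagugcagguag
hsa-miR-18a-5p: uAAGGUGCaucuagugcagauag
The next pair share another seed.
hsa-miR-19a-3p: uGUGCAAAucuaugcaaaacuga
hsa-miR-19b-3p: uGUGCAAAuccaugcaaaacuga
The last has a seed of its own.
hsa-miR-92a-3p: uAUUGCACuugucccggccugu
From the first to the last of these mature sequences the cluster spans chr13:91350618-91351382. The array values describe mRNA, and the miRNAs themselves were not measured here.

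Promoters are shown for the 5 members that passed the test in both of 2 comparisons, GSI in Empty-V cells and the cluster under GSI. Each is the RefSeq window of 250 bases before to 50 after the start on GRCh38.p14. Capitals mark matches, on either strand, to CCAAT (the NF-Y box), CACGTG (an E-box) and TGGGAA (the RBPJ core, where the NOTCH1 complex binds).
FDPS, chr1:155308616-155308915, plus strand: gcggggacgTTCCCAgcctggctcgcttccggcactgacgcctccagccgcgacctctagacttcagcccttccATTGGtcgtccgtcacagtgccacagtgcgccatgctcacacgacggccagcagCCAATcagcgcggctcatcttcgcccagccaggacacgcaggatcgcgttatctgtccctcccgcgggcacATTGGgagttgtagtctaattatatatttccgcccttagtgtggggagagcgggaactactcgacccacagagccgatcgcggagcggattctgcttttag
LSS, chr21:46228725-46229024, minus strand: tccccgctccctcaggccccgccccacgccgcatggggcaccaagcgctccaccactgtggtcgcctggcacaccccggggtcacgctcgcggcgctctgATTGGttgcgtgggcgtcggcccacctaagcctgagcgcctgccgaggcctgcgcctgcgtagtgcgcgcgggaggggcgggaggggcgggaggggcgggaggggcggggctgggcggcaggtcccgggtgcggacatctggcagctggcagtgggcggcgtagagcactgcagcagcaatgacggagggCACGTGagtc
NSDHL, chrX:152830813-152831112, plus strand: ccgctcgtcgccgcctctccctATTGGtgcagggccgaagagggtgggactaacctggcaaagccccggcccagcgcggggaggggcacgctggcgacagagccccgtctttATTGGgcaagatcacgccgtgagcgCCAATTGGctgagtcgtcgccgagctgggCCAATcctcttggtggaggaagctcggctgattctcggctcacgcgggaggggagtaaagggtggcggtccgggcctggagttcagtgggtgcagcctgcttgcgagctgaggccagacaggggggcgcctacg
DHCR7, the first of 2 windows, chr11:71448344-71448643, minus strand: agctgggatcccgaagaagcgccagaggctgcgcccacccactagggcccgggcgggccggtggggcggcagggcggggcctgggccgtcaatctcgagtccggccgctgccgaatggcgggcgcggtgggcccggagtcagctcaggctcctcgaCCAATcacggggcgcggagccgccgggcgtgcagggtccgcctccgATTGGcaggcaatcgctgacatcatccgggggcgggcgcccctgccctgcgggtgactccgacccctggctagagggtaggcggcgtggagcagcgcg
ABCA1, chr9:104928106-104928405, minus strand: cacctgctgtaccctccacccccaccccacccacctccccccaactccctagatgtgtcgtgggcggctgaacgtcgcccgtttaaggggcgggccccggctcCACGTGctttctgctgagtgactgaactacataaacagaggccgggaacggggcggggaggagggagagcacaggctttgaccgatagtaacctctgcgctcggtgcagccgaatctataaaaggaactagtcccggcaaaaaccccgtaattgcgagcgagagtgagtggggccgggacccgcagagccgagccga
The FDPS window held 3 CCAAT boxes and 1 RBPJ core, and the LSS window 1 CCAAT box and an E-box after the start. NSDHL had 5 CCAAT matches, of which 1 pair overlap in a palindrome. The first DHCR7 window held 2 CCAAT boxes and the other none of the motifs searched. ABCA1 had an E-box and no CCAAT box.

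Windows were found for 28 of the 31 members, all but SQLE, ABCG1 and FASN. CCAAT occurred in 21 of the 28, or 75% of these genes, against 39.7% of all 27305 genes with a window. CACGTG occurred in 6 (LSS, SC5D, INSIG1, SCAP, ABCA1 and ELOVL5), 21.4% against 8.77% of all genes. TGGGAA occurred in 4 (MVK, FDPS, ACACA and ELOVL5), 14.3% against 28.1%. The SREBP element TCACNCCAC occurred in 1, SREBF2, which is 3.57% against 1.39%, and the LXR element, a direct repeat with a spacer of 4 bases, in 0 against 0.0256%. SREBF2 encodes SREBP2, the main activator of the sterol genes, and its window is shown for this match (TCACNCCAC and CCAAT in capitals).
SREBF2, chr22:41832855-41833154, plus strand: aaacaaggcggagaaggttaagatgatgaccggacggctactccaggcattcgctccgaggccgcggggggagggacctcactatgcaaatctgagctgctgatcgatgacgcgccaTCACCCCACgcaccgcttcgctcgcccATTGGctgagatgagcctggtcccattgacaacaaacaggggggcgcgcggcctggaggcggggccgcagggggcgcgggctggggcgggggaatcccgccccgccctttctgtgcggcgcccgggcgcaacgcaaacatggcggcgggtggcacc
Of the 8 members with a window that were lower with GSI in Empty-V cells, CCAAT occurred in 7, TGGGAA in 3 and CACGTG in 2. These matches describe the letters of the windows and not binding. The SREBP and LXR elements were each searched only as 1 fixed string, and the LXR string occurred in 7 of all 27305 genes. A string this rare was unlikely to occur among 28 genes, so its 0 does not show that LXR elements are absent. Variant forms of either element were not searched, so the 1 match to the SREBP string is no measure of SREBP sites.

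The drug label was checked on known targets. NRARP, HES1 and DTX1, direct NOTCH1 targets, were lower with GSI by 5.90, 3.22 and 3.90 on the log2 scale across vectors (59.8-fold, 9.33-fold and 14.9-fold). The NRARP arrays with GSI lay between 4.19 and 4.54, below 5.32, the median of all values, so that the size of its change is uncertain. Array medians lay between 5.30 and 5.36, and arrays of 1 group correlated at r between 0.9941 and 0.9953 over all probe sets. The 12 T-cell markers were above this median in every group, and with GSI across vectors 6 of them were higher and 1 lower. COL1A2, ITGAM, CD79A, CD79B and HBA1, markers of other cells, also lay above it in every group, so that this level alone does not mark a cell type. Of the 19 measured markers of erythroid cells, B cells, stroma and myeloid cells, 0 passed limma's test in any comparison, and between 0 and 2 of each list had an unadjusted p under 0.05. Replicate arrays differed by a median of 0.08 to 0.18 over the members, with the largest gap, 0.54, for LSS in Empty-V cells with GSI.

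In the array profile of the members, the 4 groups took different places. The median deviation of the 31 members from their own means was -0.31 and -0.32 on the Empty-V arrays with GSI and -0.01 and 0.05 on those with DMSO. It was 0.24 and 0.25 on the cluster arrays with DMSO and 0.10 and 0.16 on those with GSI. Members were thus lowest as a list in Empty-V cells with GSI and highest where the cluster met DMSO. Cluster cells with GSI lay above Empty-V cells with DMSO in this median. These are descriptions of the list and carry no test.

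**Figure D1:**
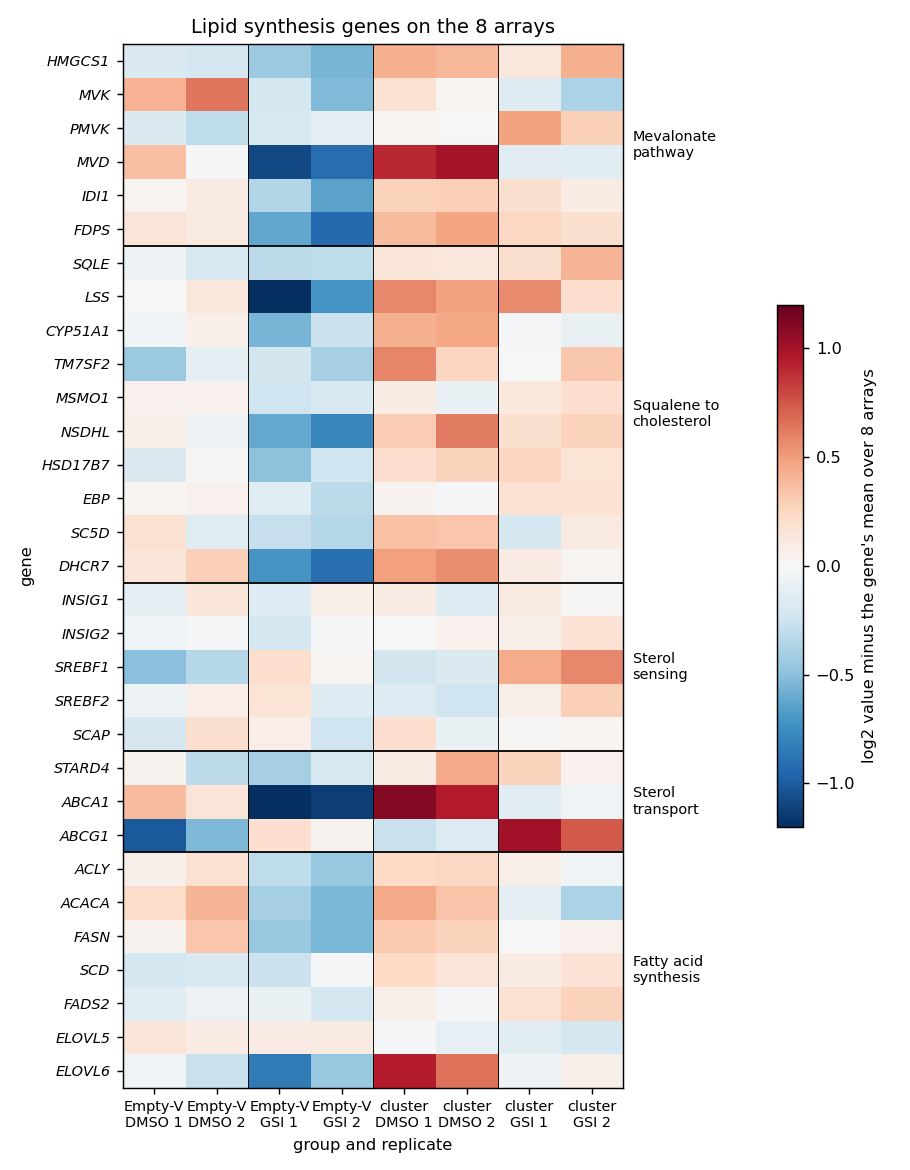
Each row is 1 of the 31 members, each column 1 of the 8 arrays, and the colour is the log2 value minus the gene's mean over the 8 arrays, with blue below and red above it. The Empty-V GSI columns hold most of the dark blue cells. Red cells are common in the cluster columns with either treatment. SREBF1, ABCG1 and PMVK have higher means with GSI than with DMSO for both vectors.

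Several synthesis genes were lower with GSI in Empty-V cells. Of the 31 members, 9 fell (MVK, MVD, FDPS, LSS, NSDHL, DHCR7, ABCA1, ACACA and FASN), 1 rose (ABCG1) and 21 did not pass the test (limma, Benjamini-Hochberg adjusted p under 0.05). Over all probe sets 3.66% were called lower and 3.8% higher in this comparison. All 31 members lay above the median of all values in each group, so that these shares include dim probe sets unlike the members. Without dim probe sets, those with a mean below that median, 1260 of 10686 were lower and 1098 higher. Of the members, 11 were then lower and 2 higher. The shares over all probe sets in the later comparisons include dim ones too. The members' median was -0.28 on the log2 scale against 0.01 over all probe sets, and 27 of 31 lay below 0, or 24 after quantile normalization. In these bulk samples, fewer cells of a kind and less RNA per cell cannot be told apart. The median difference of the members was -0.32 within set 1 and -0.29 within set 2.

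In the mevalonate pathway, 3 of 6 enzymes fell and 5 of 6 lay below 0. MVD (chr16:88651940-88663091), which decarboxylates mevalonate diphosphate to the isoprenoid unit, measured 8.55 and 8.18 in Empty-V cells with DMSO, 7.11 and 7.28 with GSI, 9.10 and 9.19 in cluster cells with DMSO and 8.06 and 8.07 with GSI. Both GSI groups lay below the DMSO group of the same vector with no overlap. The change in Empty-V cells was -1.17 ± 0.18 (SE, adjusted p = 0.00507 by limma), a 2.25-fold lower level. FDPS (chr1:155308866-155320665), which builds farnesyl diphosphate, measured 14.64 and 14.59 in Empty-V cells with DMSO, 13.86 and 13.55 with GSI, 14.86 and 14.96 in cluster cells with DMSO and 14.73 and 14.68 with GSI. Empty-V cells with GSI stood apart and every other array lay within 14.59 to 14.96. It fell by 0.91 in Empty-V cells (SE 0.17, adjusted p = 0.0129 by limma), 1.88-fold.

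MVK (chr12:109573272-109598125), the first kinase after mevalonate, measured 8.14 and 8.36 in Empty-V cells with DMSO, 7.51 and 7.19 with GSI, 7.90 and 7.75 in cluster cells with DMSO and 7.56 and 7.34 with GSI. Levels with GSI were low for either vector, and the highest level was that of Empty-V cells with DMSO. Its change in Empty-V cells was -0.90 ± 0.18 (SE, adjusted p = 0.0207 by limma). HMGCS1, the HMG-CoA synthase at the entry of the pathway, measured 14.48 and 14.44 in Empty-V cells with DMSO, 14.22 and 14.10 with GSI, 15.08 and 15.05 in cluster cells with DMSO and 14.79 and 15.08 with GSI. All 4 cluster arrays lay above all 4 Empty-V arrays. Its value for GSI in Empty-V cells, -0.30 (adjusted p = 0.333 by limma), did not pass. PMVK, the second kinase of the pathway, and IDI1, the isomerase that makes the isoprenoid donor for FDPS, had changes of 0.09 and -0.56 in Empty-V cells, and neither passed.

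Of the 10 enzymes from squalene to cholesterol, 3 fell and all 10 lay below 0 in Empty-V cells. LSS (chr21:46188446-46228774), which closes the sterol rings as lanosterol synthase, measured 9.76 and 9.90 with DMSO and 8.52 and 9.06 with GSI in Empty-V cells, then 10.34 and 10.25 with DMSO and 10.33 and 9.97 with GSI in cluster cells. Only the Empty-V arrays with GSI lay below 9.76. The change was -1.04 ± 0.22 (SE, adjusted p = 0.0214 by limma), 2.06-fold lower. DHCR7 (chr11:71427287-71449043), the reductase of the last step to cholesterol, measured 12.18 and 12.32 with DMSO and 11.32 and 11.13 with GSI in Empty-V cells, then 12.52 and 12.59 with DMSO and 12.13 and 12.06 with GSI in cluster cells. The level in cluster cells with GSI was close below that in Empty-V cells with DMSO. It fell by 1.02 in Empty-V cells (SE 0.16, adjusted p = 0.0059 by limma), 2.04-fold.

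NSDHL (chrX:152831063-152869729), a dehydrogenase of sterol demethylation, measured 9.82 and 9.68 with DMSO and 9.14 and 8.97 with GSI in Empty-V cells, then 10.06 and 10.38 with DMSO and 9.95 and 10.03 with GSI in cluster cells. The order of the groups was that of LSS. Its change was -0.69 ± 0.17 (SE, adjusted p = 0.0446 by limma), and 0.107 with the set number as a block. CYP51A1, the lanosterol demethylase, measured 11.12 and 11.21 with DMSO and 10.59 and 10.89 with GSI in Empty-V cells, then 11.58 and 11.61 with DMSO and 11.14 and 11.06 with GSI in cluster cells. GSI arrays lay below DMSO arrays for both vectors, yet neither vector alone passed. SQLE, the squalene epoxidase that commits carbon to sterols, measured 11.83 and 11.69 with DMSO and 11.57 and 11.58 with GSI in Empty-V cells, then 12.03 and 12.02 with DMSO and 12.08 and 12.29 with GSI in cluster cells. Its arrays separated by vector rather than by drug. TM7SF2 (a sterol reductase), MSMO1 (the methyl oxidase), HSD17B7 (the keto reductase), EBP (the sterol isomerase) and SC5D (the desaturase) had changes between -0.33 and -0.03 in Empty-V cells, and 0 of the 5 passed.

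Fatty acid synthesis had 2 of 7 members lower and 6 of 7 below 0 in Empty-V cells. ACACA (chr17:37084992-37406836), the acetyl-CoA carboxylase that makes malonyl-CoA, measured 10.90 and 11.08 with DMSO and 10.28 and 10.13 with GSI in Empty-V cells, then 11.13 and 11.02 with DMSO and 10.57 and 10.30 with GSI in cluster cells. Here the arrays split by drug, with all 4 GSI arrays below all 4 DMSO arrays. The change in Empty-V cells was -0.78 ± 0.17 (SE, adjusted p = 0.0264 by limma), and the adjusted p was 0.0665 with the block. FASN (chr17:82078338-82098236), the fatty acid synthase, measured 12.45 and 12.74 with DMSO and 11.95 and 11.86 with GSI in Empty-V cells, then 12.72 and 12.69 with DMSO and 12.40 and 12.46 with GSI in cluster cells. The lowest 2 arrays were the Empty-V arrays with GSI. It fell by 0.69 (SE 0.17, adjusted p = 0.0372 by limma, 0.0951 with the block).

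ELOVL6 (chr4:110045846-110199202), which lengthens saturated chains, measured 10.56 and 10.34 with DMSO and 9.76 and 10.15 with GSI in Empty-V cells, then 11.55 and 11.26 with DMSO and 10.54 and 10.68 with GSI in cluster cells. Cluster cells with DMSO stood above every other array, and the change in Empty-V cells, -0.49 (adjusted p = 0.173 by limma), did not pass. SCD, the desaturase that makes oleate, measured 15.60 and 15.63 with DMSO and 15.56 and 15.80 with GSI in Empty-V cells, then 16.05 and 15.97 with DMSO and 15.91 and 15.99 with GSI in cluster cells. Its arrays also separated by vector and overlapped between drug and solvent within each vector. ACLY, which supplies cytosolic acetyl-CoA, had -0.50, and FADS2 and ELOVL5, a desaturase and an elongase of polyunsaturated chains, -0.03 and -0.02, none of them past the test.

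Of the 5 sterol sensing members, 0 passed limma's test in Empty-V cells and 1, SREBF1, had an unadjusted p under 0.05. SREBF1 (chr17:17811334-17836986), which encodes SREBP1, the activator of fatty acid genes, measured 13.02 and 13.18 with DMSO and 13.73 and 13.55 with GSI in Empty-V cells, then 13.31 and 13.35 with DMSO and 13.97 and 14.10 with GSI in cluster cells. GSI arrays were above DMSO arrays for both vectors. Its change was 0.54 for Empty-V and 0.70 for the cluster, and neither passed alone (adjusted p = 0.0813 and 0.0751 by limma). SREBF2 measured 12.38 and 12.52 with DMSO and 12.60 and 12.28 with GSI in Empty-V cells, then 12.28 and 12.20 with DMSO and 12.51 and 12.72 with GSI in cluster cells, so that the Empty-V groups overlapped.

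INSIG1, a retention protein that is itself a target of SREBP, measured 12.97 and 13.23 with DMSO and 12.93 and 13.16 with GSI in Empty-V cells, then 13.17 and 12.93 with DMSO and 13.19 and 13.10 with GSI in cluster cells. All 4 groups overlapped. SCAP measured 9.94 and 10.33 with DMSO and 10.22 and 9.90 with GSI in Empty-V cells, then 10.34 and 10.06 with DMSO and 10.15 and 10.16 with GSI in cluster cells, and also overlapped in every group. INSIG2, the other retention protein, changed by -0.08 in Empty-V cells (adjusted p = 0.821 by limma).

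The pair of efflux pumps moved in opposite directions. ABCA1 (chr9:104781006-104928155), which loads cholesterol onto apolipoprotein A-I, measured 9.01 and 8.80 with DMSO and 7.39 and 7.51 with GSI in Empty-V cells, then 9.74 and 9.59 with DMSO and 8.51 and 8.59 with GSI in cluster cells. No group overlapped another, and the order ran from cluster cells with DMSO down to Empty-V cells with GSI. The change in Empty-V cells was -1.46 ± 0.16 (SE, adjusted p = 9.99e-04 by limma), 2.74-fold lower. ABCG1 (chr21:42199689-42297244), which passes cholesterol on to HDL, measured 8.25 and 8.72 with DMSO and 9.46 and 9.30 with GSI in Empty-V cells, then 8.99 and 9.10 with DMSO and 10.27 and 10.00 with GSI in cluster cells. GSI arrays were the higher ones for either vector. It rose by 0.90 (SE 0.20, adjusted p = 0.0283 by limma, 0.0662 with the block), 1.86-fold. STARD4, a cytosolic sterol carrier, had -0.16 in Empty-V cells (adjusted p = 0.71 by limma).

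**Figure D2:**
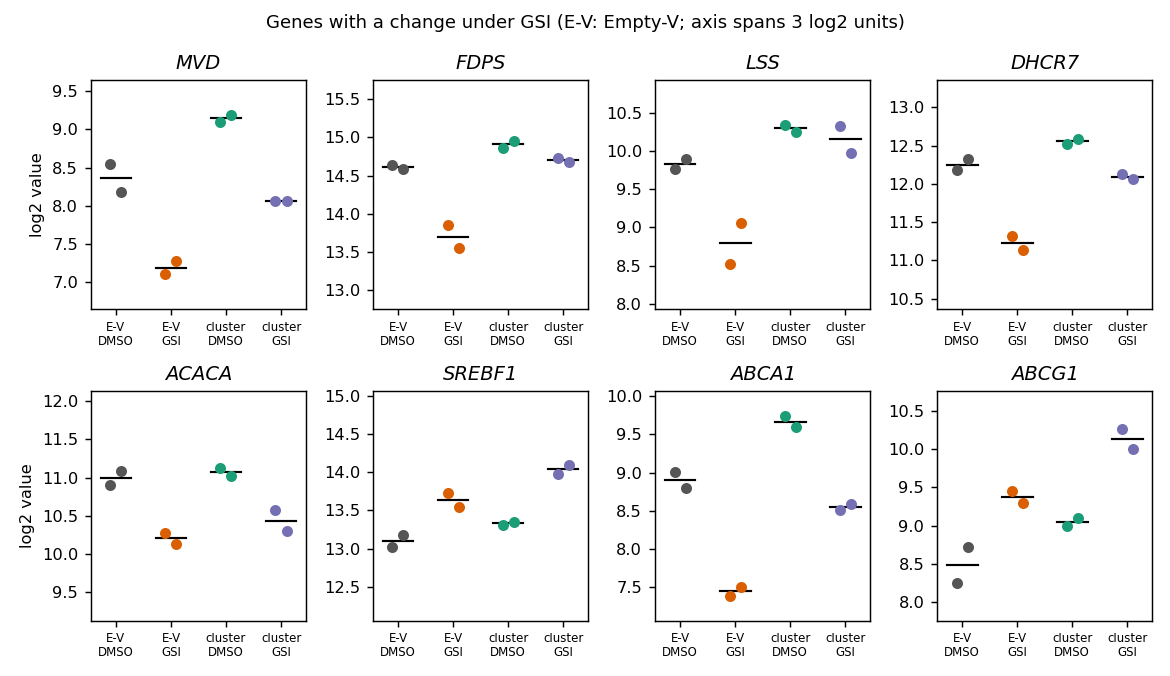
Points are the log2 values of single arrays and bars the group means of 2 arrays for 8 members, with an axis of 3 log2 units in every panel. MVD, FDPS, LSS, DHCR7 and ABCA1 have their lowest points in Empty-V cells with GSI, ACACA splits by drug, and SREBF1 and ABCG1 are higher with GSI for both vectors.

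These counts in Empty-V cells rested on few arrays. Leaving out 1 array left 2 to 7 members lower, with 3 without Empty-V DMSO replicate 1, 2 without Empty-V DMSO replicate 2, 5 without Empty-V GSI replicate 1 and 4 without Empty-V GSI replicate 2, and of the members MVD and ABCA1 passed in all 8 such fits while NSDHL and FASN passed in 0. ABCG1 did not pass without Empty-V DMSO replicate 1, Empty-V GSI replicate 1 or Empty-V GSI replicate 2, and a fit of only the 4 arrays compared called 4 members lower and 0 higher.

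In cluster cells GSI called fewer members. MVD fell by 1.08 (SE 0.18, adjusted p = 0.0186 by limma, 0.0595 with the block) and ABCA1 by 1.11 (SE 0.16, adjusted p = 0.00984, 0.0371 with the block), ABCG1 rose by 1.09 (SE 0.20, adjusted p = 0.0314, 0.0772 with the block), and 28 members did not pass. Over all probe sets 0.606% were called lower and 0.96% higher. Of the 16 enzymes of the mevalonate pathway and sterol synthesis, 12 lay below 0, with a median of -0.17 in cluster cells against -0.38 in Empty-V cells. The other members that fell in Empty-V cells had values of -0.37 for MVK, -0.20 for FDPS, -0.14 for LSS, -0.23 for NSDHL, -0.46 for DHCR7, -0.64 for ACACA and -0.27 for FASN here. ELOVL6 had -0.79 (adjusted p = 0.0943). Leaving out any of the 4 cluster arrays left 0 members lower and 0 higher, and leaving out either Empty-V GSI replicate left ABCG1 not passing.

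**Figure D3:**
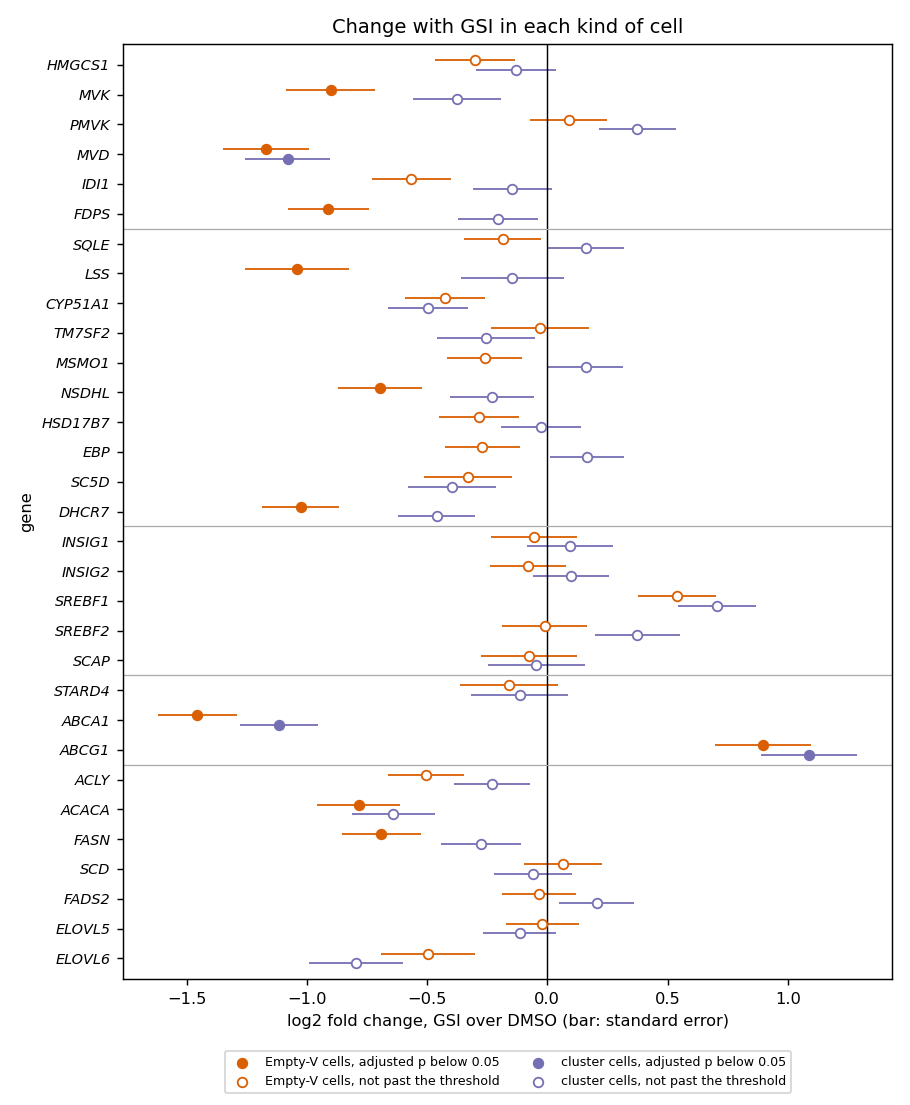
For each of the 31 members, the points give the log2 fold change of GSI over DMSO and the bars its standard error, in orange for Empty-V cells and purple for cluster cells, and filled points passed the test at an adjusted p under 0.05. Most orange points of the enzymes lie left of 0, with 9 filled to the left and ABCG1 to the right, while MVD, ABCA1 and ABCG1 are filled for cluster cells.

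Averaged over both vectors, GSI gave 10 members lower, 2 higher and 19 that did not pass, beside 3.48% of all probe sets lower and 4.35% higher. Of the members ABCA1 changed most, by -1.28 ± 0.12 (SE, adjusted p = 1.72e-04 by limma), a 2.44-fold lower level. MVD followed at -1.12 ± 0.13 (adjusted p = 6.89e-04), and DHCR7 at -0.74 ± 0.11 (adjusted p = 0.00427). ACACA fell by 0.71 (SE 0.12, adjusted p = 0.00764). ABCG1 rose by 0.99 (SE 0.14, adjusted p = 0.00294) and SREBF1 by 0.62 (SE 0.11, adjusted p = 0.011). These 6 members passed in all 8 fits that left out 1 array and with the block.

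The other 6 were closer to the threshold. MVK fell by 0.64 and kept its call with the block (adjusted p = 0.0178 without it by limma and 0.0418 with it). FDPS at -0.56, LSS at -0.59, CYP51A1 at -0.46, FASN at -0.48 and ELOVL6 at -0.65 had adjusted p between 0.0214 and 0.0458 and lost the call with the block, at 0.0568, 0.0914, 0.106, 0.0926 and 0.0547. With the block 5 members were lower, and leaving out 1 array left between 4 and 7, with 4 without cluster DMSO replicate 1 or cluster GSI replicate 2, 5 without Empty-V DMSO replicate 2 or cluster GSI replicate 1, and 6 without Empty-V DMSO replicate 1, Empty-V GSI replicate 1 or cluster DMSO replicate 2. Of the 16 mevalonate and sterol enzymes, 15 lay below 0 (14 after quantile normalization), with a median of -0.36.

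Under GSI, 5 of the 31 members were higher in cluster cells (FDPS, LSS, NSDHL, DHCR7 and ABCA1), 0 were lower and 26 did not pass, and with the set number as a block 0 passed. These counts stand beside 0.499% of all probe sets higher and 0.573% lower. Without dim probe sets, 12 members were higher, beside 487 of 10686 probe sets higher and 425 lower. The members' median was 0.46 against -0.02 over all probe sets, and 30 of 31 lay above 0, ELOVL5 being the exception, with the same count after quantile normalization. All 16 mevalonate and sterol enzymes lay above 0, with a median of 0.59. The median was 0.45 within set 1 and 0.48 within set 2. This comparison shares the Empty-V arrays with GSI with the GSI comparison in Empty-V cells, and low values on those arrays enter both.

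LSS was 1.36 higher (SE 0.22, adjusted p = 0.0303 by limma), 2.57-fold, and ABCA1 1.10 higher (SE 0.16, adjusted p = 0.0286), 2.14-fold. FDPS was 1.00 higher (SE 0.17, adjusted p = 0.0356), NSDHL 0.94 (SE 0.17, adjusted p = 0.0465) and DHCR7 0.87 (SE 0.16, adjusted p = 0.0441). For each of the 5, both cluster arrays with GSI lay above both Empty-V arrays with GSI. Because these genes were called in this same comparison, the separation adds no support. How many of all probe sets separate this way was not counted. MVD at 0.87 and HMGCS1 at 0.78 had adjusted p of 0.0539 and 0.0593, and SQLE at 0.61, IDI1 at 0.64 and ABCG1 at 0.76 lay between 0.0958 and 0.0986. SREBF1 at 0.40, SREBF2 at 0.18, INSIG1 at 0.10 and SCAP at 0.10 did not pass.

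None of the 5 calls held with the set number as a block. There the adjusted p by limma was 0.1 for FDPS, 0.0861 for LSS and ABCA1, 0.121 for NSDHL and 0.124 for DHCR7. Over all probe sets an intensity trend with a robust fit called 680 higher instead of 107, so that it raised calls in general. Leaving out 1 array left 1 member, ABCA1, higher where the array came from a DMSO group and 0 where it came from either GSI group, whereas an intensity trend with a robust fit called 18 members higher.

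With DMSO, the cluster gave no call among the members by limma, 0 higher and 0 lower of 31, while 10 had an unadjusted p under 0.05. Over all probe sets 0.0186% were called higher and 0.0233% lower, and 2092 of 21448 had an unadjusted p under 0.05. The members' median was 0.26, and 25 of 31 lay above 0. ELOVL6 had the largest value, 0.95 ± 0.20 (SE, adjusted p = 0.197 by limma), followed by MVD at 0.78, ABCA1 at 0.76, TM7SF2 at 0.70 and HMGCS1 at 0.60, with adjusted p between 0.21 and 0.336. MVK had -0.42 and SREBF2 -0.21. For ELOVL6, MVD, ABCA1, TM7SF2 and HMGCS1, both cluster arrays with DMSO lay above both Empty-V arrays with DMSO. These genes were named for their large differences in this same comparison, so this separation adds no support. How many of all probe sets separate this way was not counted. An intensity trend with a robust fit called 2 members higher, and 15 of all probe sets.

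**Figure D4:**
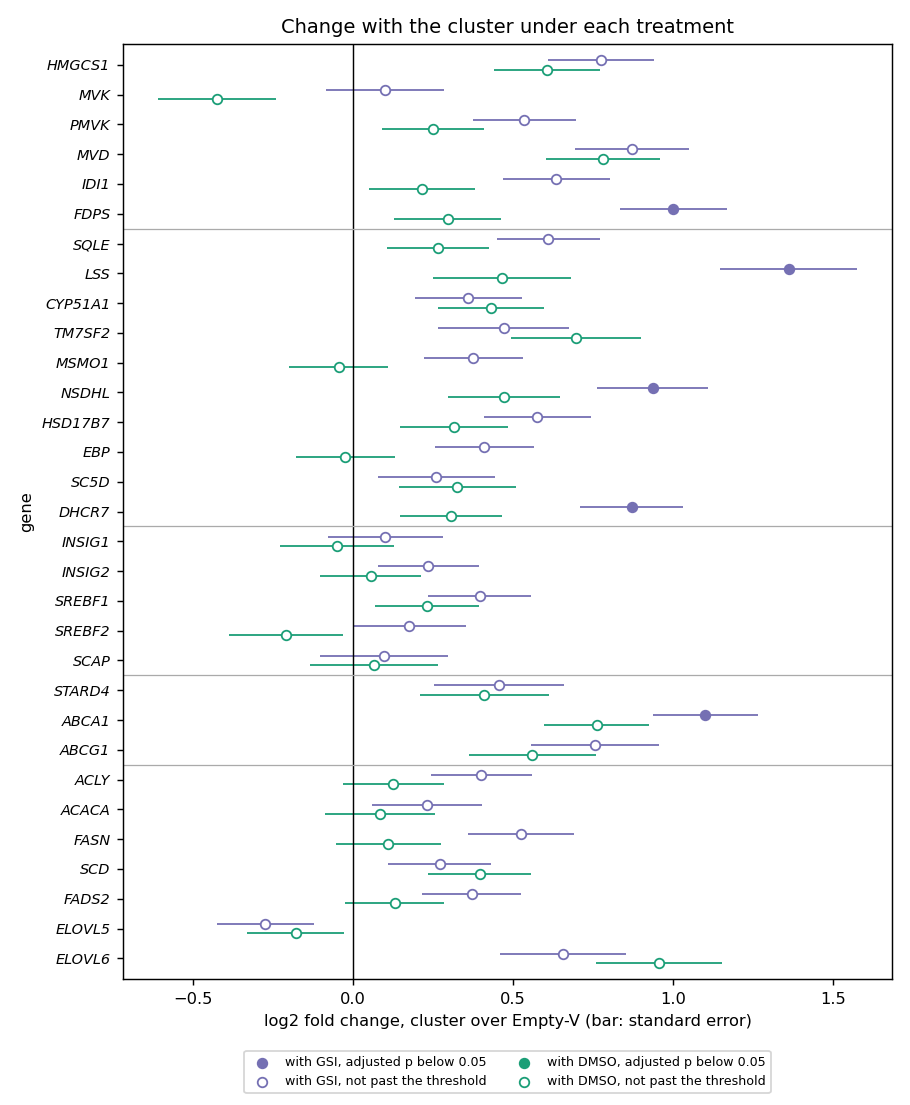
For each of the 31 members, the points give the log2 fold change of cluster over Empty-V cells and the bars its standard error, in purple with GSI and green with DMSO, and filled points passed the test at an adjusted p under 0.05. With GSI, FDPS, LSS, NSDHL, DHCR7 and ABCA1 are filled and all points but that of ELOVL5 lie right of 0, while with DMSO 25 lie right of 0 and none is filled.

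The comparison of GSI effects asks whether the drug lowered these genes less when the cluster was expressed. No member passed by limma, 0 higher and 0 lower, beside 0% of all probe sets higher and 0.028% lower. At an unadjusted p under 0.05 there were 3 of the 31 members, beside 2698 of all 21448 probe sets, which is no smaller a share. The members' median difference was 0.24 (0.17 after quantile normalization), with 25 of 31 above 0. The 3 were LSS at 0.90 ± 0.30 (SE, adjusted p = 0.301), FDPS at 0.70 ± 0.24 (adjusted p = 0.297) and DHCR7 at 0.56 ± 0.23 (adjusted p = 0.364). MVD at 0.09, ABCG1 at 0.20, ACACA at 0.14 and SREBF1 at 0.16 were smaller than their standard errors. ABCA1 had 0.34 ± 0.23 (adjusted p = 0.574) and ELOVL6 -0.30. A difference of the GSI effects between vectors was therefore not shown for any member.

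Averaged over both treatments, a comparison added after the effects under each treatment had been seen, the cluster gave 7 members higher, 0 lower and 24 that did not pass, beside 0.289% of all probe sets higher and 0.532% lower. They were LSS (0.91, adjusted p = 0.0363 by limma), ABCA1 (0.93, adjusted p = 0.0145), MVD (0.82, adjusted p = 0.0282), ELOVL6 (0.80, adjusted p = 0.04), NSDHL (0.70, adjusted p = 0.0425), HMGCS1 (0.69, adjusted p = 0.0389) and FDPS (0.65, adjusted p = 0.0469). DHCR7 at 0.59 (adjusted p = 0.0532) and ABCG1 at 0.66 (adjusted p = 0.0716) lay just outside the threshold. With the block 0 of the 7 passed, at adjusted p between 0.0581 and 0.128, and without any 1 array at most 1 did, ABCA1 when Empty-V DMSO replicate 1 was left out.

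Of 36 other genes of the same routes, 28 were measured, and 5 passed in at least 1 comparison. Across vectors 0 were higher and 4 lower with GSI, beside 4.35% and 3.48% of all probe sets. With the block 2 stayed lower, as ERLIN1 (adjusted p = 0.106 by limma) and MID1IP1 (0.0765) lost the call. In Empty-V cells 0 were higher and 5 lower, beside 3.8% and 3.66% of all probe sets. In cluster cells 0 of either passed (3 at an unadjusted p under 0.05), beside 0.96% and 0.606%. The cluster under GSI gave 3 higher and 0 lower, beside 0.499% and 0.573%. Neither the cluster under DMSO nor the difference of GSI effects called any, 0 passing by limma, with 4 and 6 at an unadjusted p under 0.05. Of all 21448 probe sets, 2092 and 2698 had such a p in these 2 comparisons, and 3108 for GSI in cluster cells. The medians of the 28 genes were 0.05, 0.01, 0.04 and 0.10 in the first 4 comparisons named here. TMEM97, a sterol-binding protein of the endoplasmic reticulum that lowers NPC1, measured 14.55 and 14.68 with DMSO and 13.00 and 13.45 with GSI in Empty-V cells, then 14.76 and 14.73 with DMSO and 14.53 and 14.33 with GSI in cluster cells. It fell by 1.39 in Empty-V cells (adjusted p = 0.00314 by limma) and was 1.21 higher with the cluster under GSI (adjusted p = 0.03, 0.0861 with the block).

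SLC25A1, the citrate carrier that feeds both routes, measured 7.74 and 8.14 with DMSO and 6.94 and 6.89 with GSI in Empty-V cells, then 7.78 and 7.84 with DMSO and 8.06 and 8.30 with GSI in cluster cells. Only the Empty-V arrays with GSI were below 7.74. It fell by 1.02 in Empty-V cells (adjusted p = 0.0117 by limma) and was 1.26 higher with the cluster under GSI (adjusted p = 0.0274, 0.0665 with the block). ACAT2, the cytosolic thiolase ahead of HMGCS1, fell by 0.89 in Empty-V cells and was 1.00 higher with the cluster under GSI (adjusted p = 0.0116 and 0.0318 by limma, the latter 0.0987 with the block). ERLIN1, which takes part in sterol-regulated protein turnover, and MID1IP1, an activator of acetyl-CoA carboxylase, fell by 0.85 and 0.86 in Empty-V cells (adjusted p = 0.0305 and 0.0158). ERLIN1 lost its call with the block (adjusted p = 0.071).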

How the data were processed

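Total RNA of 8 samples was hybridized to Clarion S arrays. The authors summarized probes by SST-RMA in Transcriptome Analysis Console and deposited log2 values, whose stated annotation build is hg38. Groups came from the labels. Members were matched by the platform's gene symbol, and positions are RefSeq on GRCh38. In R 4.3.3, limma 3.58.1 fitted 4 group means to all 21448 probe sets (4 residual degrees of freedom, prior 5.29), with Benjamini-Hochberg adjustment within each comparison and a threshold of 0.05. Arrays have no read depth, and 2 per group limit the precision. The labels number 2 sets and the supplement speaks of independent biological experiments, so a fit with the set number as a block was an alternative. Deviations of same-numbered arrays correlated at r between -0.24 and -0.192 in the 6 pairs of groups. The reported model holds no block. Members, lists, tests and the rule for named genes (each member that passed, with the sterol sensors and a few set enzymes) were chosen with earlier results of these data known. The limma fit was tried on simulated data, with changes planted in the GSI groups only. Promoters and miRNAs were searched in Python 3.11.15. Alternatives were a replicate block, a looser threshold (0.1), no dim probe sets, quantile normalization, an intensity trend with a robust fit, the 4 arrays compared and leaving out each array. The block with crossed numbers and the cluster effect across treatments were chosen after seeing the data.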

Additional observations from a re-analysis of the deposited data

How the results depend on the processing

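No call of a named member reversed its direction under the alternatives run. Only calls past the threshold in the reported model were checked for this. Values near 0 turned sign under quantile normalization, with 24 instead of 27 members below 0 for GSI in Empty-V cells. The counts of members that passed moved with the settings. For GSI across vectors, 10 members lower became 5 with the replicate block and 4 to 7 with 1 array left out. For GSI in Empty-V cells, 1 member higher became 2 with the intensity trend and robust fit, quantile normalization, no dim probe sets or a threshold of 0.1, 0 with the block or only the 4 arrays compared, and 0 to 1 with 1 array left out, and 9 lower became 4 with only the 4 arrays and 2 to 7 with 1 left out. For GSI in cluster cells, 1 higher became 2 with the trend, no dim probe sets or the looser threshold, 0 with the block or only the 4 arrays and 0 to 1 with 1 left out, and 2 lower became 4 with the trend or no dim probe sets, 1 with the block and 0 to 2 with 1 left out. For the cluster under GSI, 5 higher became 18 with the trend, 12 without dim probe sets, 10 at the looser threshold, 0 with the block or only the 4 arrays and 0 to 1 with 1 left out. For the cluster under DMSO, 0 became 2 with the trend. For the cluster across treatments, 7 became 17 with the trend, 12 without dim probe sets, 0 with the block and 0 to 1 with 1 left out. The cause was not tested.

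There were 42 calls of members and other pathway genes in the 6 comparisons other than the cluster effect across treatments. These comparisons too were chosen with earlier results of these data known. All 42 passed with the trend, quantile normalization, the looser threshold and no dim probe sets, while 20 passed with the block and 22 did not. In the fits of only the 4 arrays compared 10 passed and 16 did not, and with each array left out in turn 168 passed and 168 did not. Over all probe sets the block called 577 higher and 429 lower for GSI across vectors instead of 933 and 747, and 8 and 25 for the cluster under GSI instead of 107 and 123. For the cluster under GSI, the trend called 680 higher, no dim probe sets 487 of 10686 and the looser threshold 430. Across treatments the trend called 341 higher and no dim probe sets 250 of 10686, instead of 62. Calls thus rose over all probe sets and not only over the members. With crossed numbers the block called 8 members lower for GSI across vectors, also 8 for Empty-V and 2 for cluster cells, and 4 higher for the cluster under GSI. No member has several probe sets, so the planned use of another probe set gave no value. A fit that leaves 1 array in a group assumes that it varies like the others, and single calls of the cluster comparisons rest on 2 arrays per group.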
